A study of Mus musculus with 24 samples.

Results

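The cytokine response of cells that express an inhibitor of miR-146a-5p was compared, gene by gene, with the response of control cells. MIN6 cells are insulinoma-derived mouse β cells, and every line was grown from a single clone after lentiviral transduction and selection with 1 µg/mL puromycin for 7 days. Scr cells carried a scrambled sequence, ZIP cells an antisense sequence against miR-146a-5p in the same vector backbone, and Scr+Cy and ZIP+Cy were the same lines after 24 h with a mix of IL-1β (5 ng/mL), TNFα (10 ng/mL) and IFNγ (100 ng/mL). These 4 groups of 4 libraries were taken by their labels and made up 16 of the 24 bulk RNA-seq libraries. The other 8 libraries came from cells overexpressing miR-146a-5p, without (OE) and with cytokines (OE+Cy). A response is the log2 difference between cytokine-treated and untreated libraries of a line, and the interaction is the ZIP response minus the Scr response. With 1 clone per line, an effect of the inhibitor and a difference between clones cannot be told apart, and nothing states whether the libraries of a group came from separate cultures, so p values measure the spread between these libraries only. The microRNA itself was not measured here.

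IL-1β and TNFα act through receptors that activate NF-κB, and IFNγ acts through the kinases JAK1 and JAK2, which leads to induction of IRF1 and a second wave of interferon-stimulated genes. In β cells the mix is known to raise chemokines, antigen presentation, inducible nitric oxide synthase and cell death. NF-κB induces miR-146a, which is known to limit IL-1 receptor signalling by repressing the adaptors IRAK1 and TRAF6. The interaction therefore asks whether the response is larger, smaller or equal in size when the microRNA is inhibited.

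The sequence inhibited in ZIP cells is shown with its seed, positions 2 to 8 from the 5′ end, in capitals. RefSeq places it on the minus strand at chr11:43374435-43374456 of GRCm38.p6.
mmu-miR-146a-5p: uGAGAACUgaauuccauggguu
3 promoter windows are shown because their genes stand for the cases met in the data. They run from 250 bases before to 50 bases after a RefSeq gene start and are written 5′ to 3′ on the strand of the gene. Irf1 (chr11:53769764-53770063, plus strand) rose almost equally in both lines, whereas Crybg1 (chr10:44004797-44005096, minus strand, 1 of its 3 windows) and Pim2 (chrX:7878056-7878355, plus strand) rose more in ZIP cells. Capitals mark matches on either strand to TTCNNNGAA (the γ-activated site, GAS), to the interferon-stimulated response element (ISRE) or to the κB consensus.
Irf1: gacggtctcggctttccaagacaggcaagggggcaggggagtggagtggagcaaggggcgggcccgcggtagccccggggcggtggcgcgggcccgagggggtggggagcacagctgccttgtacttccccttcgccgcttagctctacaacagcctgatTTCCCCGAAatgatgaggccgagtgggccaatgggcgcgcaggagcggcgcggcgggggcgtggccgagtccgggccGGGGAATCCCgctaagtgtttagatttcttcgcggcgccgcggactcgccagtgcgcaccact
Crybg1: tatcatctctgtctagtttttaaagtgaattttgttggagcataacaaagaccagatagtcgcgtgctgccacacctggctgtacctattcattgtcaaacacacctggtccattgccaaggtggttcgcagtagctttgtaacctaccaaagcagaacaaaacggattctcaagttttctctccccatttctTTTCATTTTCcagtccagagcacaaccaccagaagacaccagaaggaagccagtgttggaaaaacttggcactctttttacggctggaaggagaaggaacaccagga
Pim2: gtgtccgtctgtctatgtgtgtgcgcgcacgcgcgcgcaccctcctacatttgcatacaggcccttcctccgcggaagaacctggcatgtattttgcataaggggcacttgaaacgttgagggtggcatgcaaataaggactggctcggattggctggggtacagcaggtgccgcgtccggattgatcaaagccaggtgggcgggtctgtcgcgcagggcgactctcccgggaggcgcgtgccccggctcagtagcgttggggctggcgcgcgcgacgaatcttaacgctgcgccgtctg
The Irf1 window held a GAS match that began 90 bases before the gene start and a κB match that began 13 bases before it. The Crybg1 window held an ISRE match that began 57 bases before the start, and the Pim2 window held none of the 3 motifs. A match is a description of letters, not a binding site.

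Between 26657792 and 36406136 reads were assigned to genes in each of the 16 libraries, and 17696 genes entered the test. Some libraries stood apart from their groups. Untreated ZIP replicate 4 held transcripts of cytokine-induced genes: for 87 genes that rose at least 32-fold in Scr to a mean of at least 10 CPM (reads scaled to library size), a rule set after the data were seen, their median level in ZIP replicate 4 was 3.66% of the ZIP+Cy mean, against 0.585% to 0.641% in the other untreated ZIP libraries. Of these genes, 85 were highest in ZIP replicate 4 among the untreated ZIP libraries. Scr replicate 3 was the highest untreated Scr library for 77 of them, with a median of 1.45% against 0.416% to 0.7%. The libraries numbered 1 had the lowest treated levels in both lines, with medians of 64% and 71.7% of the ZIP+Cy mean in Scr+Cy replicate 1 and ZIP+Cy replicate 1.

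**Figure D1:**
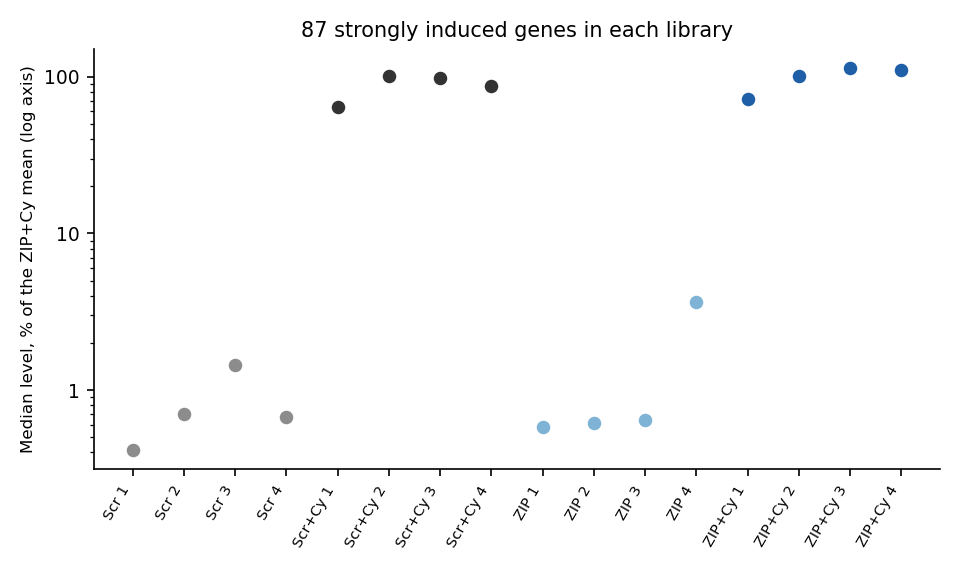
Median level of 87 genes that rose at least 32-fold in Scr, in each of the 16 libraries, as a percentage of the ZIP+Cy mean on a log axis; 1 point is 1 library. Untreated ZIP replicate 4 lies at 3.66%, above the 0.585% to 0.641% of the other untreated ZIP libraries.

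Markers of other tissues were also unequal. Summed over 8 connective tissue markers, Scr replicate 1 held 20.6 CPM, Scr+Cy replicate 1 held 63.7 CPM and ZIP replicate 1 held 60.2 CPM, against 0.867 to 8.06 CPM in the other 13 libraries. In each of the 3 libraries 6 of the 8 markers were raised. ZIP+Cy replicate 1 held 6.5 CPM, so the libraries numbered 1 differ in this respect. ZIP+Cy replicate 3 held 28.7 CPM over 11 blood and marrow markers and Scr+Cy replicate 3 held 6.66 CPM, against at most 1.95 CPM in the rest. The part of these transcripts in the results was not tested beyond the values given without the libraries concerned, and in bulk RNA fewer cells of a type and less RNA per cell cannot be told apart. The β cell genes Ins2, Chga and Pdx1 were abundant in every group, with mean levels of at least 9266, 7745 and 768 CPM.

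The 2 responses were much alike. In Scr, 1395 genes rose (7.88% of those tested) and 472 fell (2.67%), where a call needed 1.5-fold or more and an unadjusted p under 0.05. In ZIP, 1289 genes rose (7.28%) and 922 fell (5.21%). Across 12536 genes with a mean of at least 1 CPM, the responses had a Pearson correlation of 0.915 (Spearman 0.801), and 0.972 across the 9653 genes with at least 10 CPM. Genes are not independent replicates, so this is a description of 2 sets of values that share no library.

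Of the genes called in either response, 1207 were called in both, which is 64.6% of the Scr list and 54.6% of the ZIP list. The rises were shared more than the falls. The 928 genes that rose in both made up 66.5% of the Scr rises and 72% of the ZIP rises, whereas the 264 genes that fell in both made up 55.9% of the Scr falls and 28.6% of the ZIP falls. Among the 1207 shared genes, 1192 moved the same way. Of the genes called in Scr only, 459 of 660 had the same sign in ZIP, and of those called in ZIP only, 803 of 1004 had the same sign in Scr, beside 72.2% of the 14825 genes called in neither.

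The sizes were close for genes that rose. Over the 928 genes that rose in both, the median response was 2.07 in Scr and 2.12 in ZIP on the log2 scale, and 467 had the larger response in ZIP. For the 264 genes that fell in both, the medians were −0.81 and −0.97, and 191 fell further in ZIP. That lean was still present without the 4 libraries numbered 1, where 203 of 291 genes fell further in ZIP. The number of falls in ZIP depended on single libraries: it was 768 without ZIP replicate 1 and 790 without ZIP+Cy replicate 3, and the number of falls in Scr was 660 without Scr+Cy replicate 1.

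The data also bound how unlike the responses could be. The 95% interval of the interaction lay within a 1.5-fold difference in either direction for 9923 of the 12536 genes (79.2%), and the median half-width of the interval was 0.24 on the log2 scale. Among 871 genes at 1 CPM or more that were called in both lines, the interval lay within 1.5-fold for 288 (33.1%), with a median half-width of 0.54. For most genes called in both lines a difference of 1.5-fold was therefore not excluded by the interval.

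**Figure D2:**
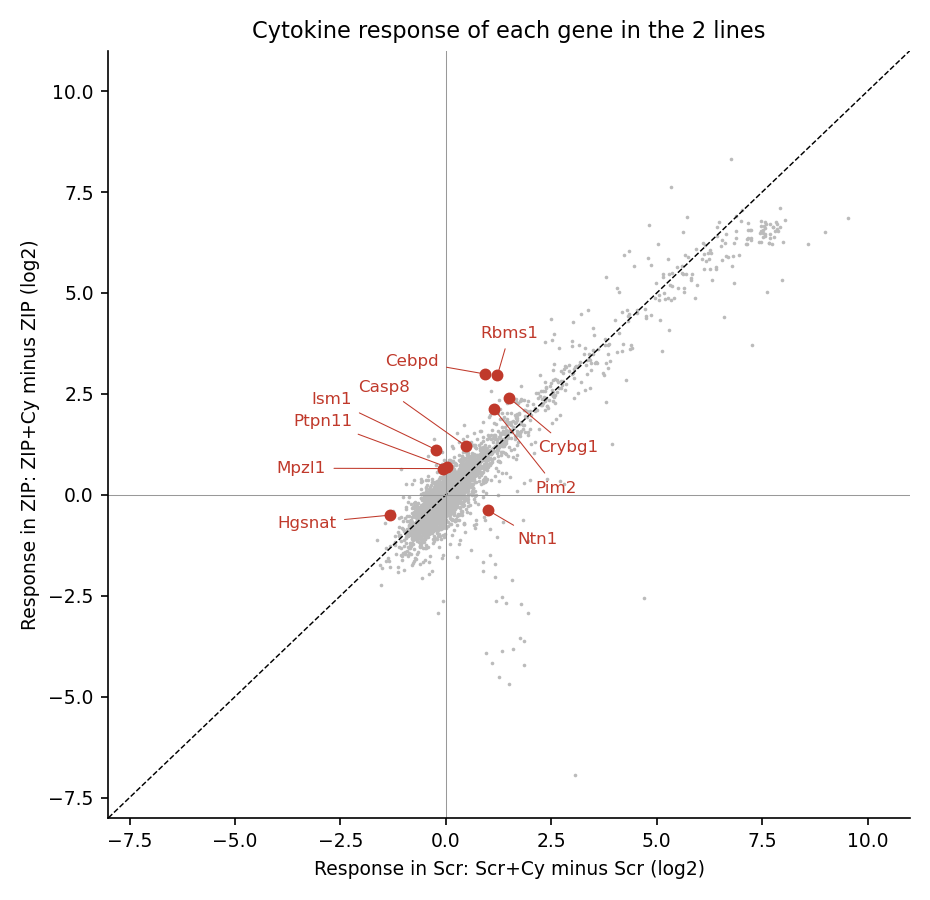
Response of each gene in Scr (x axis) and in ZIP (y axis), both log2, for genes with a mean of at least 1 CPM; 1 gene lies outside the axes. The cloud follows the dashed line of equal response (Pearson correlation 0.915), and the 10 genes called for the interaction are marked in red, 9 above the line and Ntn1 below it.

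15 genes were called in both lines with opposite signs. They were low, the highest group mean of any being 1.23 CPM, and without a block the interaction of none passed (adjusted p of at least 0.246). With the replicate block within each line 4 of them passed, Nkain2 (adjusted p = 0.0251), Runx1 (0.0279), Lgi1 (0.0344) and Scn4b (0.0356), and without the libraries numbered 1 their adjusted p in that fit was at least 0.664. In 13 of them the opposite call was lost when the libraries numbered 1 were left out. Scn4b, a sodium channel subunit named here after its values were seen, showed the pattern: it had 1.32 CPM in Scr+Cy replicate 1 and 0.878 CPM in ZIP replicate 1 and was at 0 in the other 14 libraries.

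The listed genes of cytokine signalling moved by similar amounts in both lines, and without a block none of their interactions passed. Pim2, Ptpn11 and Mpzl1, described further on, were not in these lists. Among the 18 receptors and kinases of the 3 cytokines, 7 rose in Scr and 8 in ZIP. Il1r1, the IL-1 receptor, had a response of 0.40 ± 0.08 in Scr and of 0.28 ± 0.08 in ZIP (log2 ± SE). The 7 miR-146a targets of IL-1 and TNF signalling had a median response of 0.20 in Scr and 0.11 in ZIP. Irak1 had an interaction of −0.12 (95% interval −0.30 to 0.06) and Traf6 one of 0.00 (−0.15 to 0.16), both within 1.5-fold.

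Irf1, a transcription factor that IFNγ induces, moved by nearly the same amount in both lines. It had 29.1, 28.3, 30.1 and 25.6 CPM in the 4 Scr libraries and 365, 424, 433 and 425 CPM in Scr+Cy. In ZIP it had 25.0, 29.2, 29.1 and 36.1 CPM, and in ZIP+Cy 359, 394, 417 and 433 CPM. Treated and untreated libraries were far apart and the 2 lines overlapped in both states, with an interaction of −0.12 (−0.39 to 0.16). Nfkbia, the inhibitor that NF-κB induces against itself, rose by 2.93 in Scr and by 3.06 in ZIP. Socs1, a feedback inhibitor of JAK kinases, rose by 3.77 and 3.72. Of the 22 STAT, IRF and SOCS genes 11 rose in both lines, as did 11 of the 19 NF-κB subunits and inhibitors, and without a block 0 of either list were called for the interaction. Some members had number-matched responses that did not overlap between the lines. For Irf8, a factor of the same family chosen after its values were seen, they were 2.95 to 4.72 in Scr and 1.39 to 2.6 in ZIP. Irf8 had at most 3 reads in every untreated library and means of only 0.9 CPM in Scr+Cy and 0.171 CPM in ZIP+Cy. The size of its responses therefore depends on the small count added before logs were taken. The share of all genes without such overlap is not given.

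Interferon-stimulated genes rose in both lines with few exceptions. All 19 guanylate-binding proteins and IRG GTPases in the table rose in both lines, as did all 33 antiviral genes and 19 of 21 genes of MHC class I and peptide supply. The 19 GTPases, which act against intracellular pathogens, had a median response of 7.17 in Scr and 6.53 in ZIP (6.61 and 6.48 with genes at 3 reads or fewer in a group set against 3 reads per library). Igtp, 1 of the most abundant, had means of 13.4 CPM in Scr, 1305 in Scr+Cy, 20.2 in ZIP and 1521 in ZIP+Cy. No GTPase was called for the interaction.

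The lower median in ZIP did not stand without 1 library. With all libraries, 16 of the 19 GTPases had the smaller response in ZIP and the median interaction was −0.68 (−0.38 with genes at 3 reads or fewer at their bound). Without ZIP replicate 4, 18 of 19 had the larger response in ZIP and the median was 0.80. The median interaction of the MHC class II genes went from −0.88 to 0.08, that of the antiviral genes from −0.11 to 0.15 and that of the class I genes from −0.16 to 0.08. Igtp had 49.9 CPM in ZIP replicate 4, against 6.22, 11.6 and 13.0 CPM in the other ZIP libraries. No direction of difference between the lines is given for these lists.

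Without ZIP replicate 4, 12 genes were called, all 10 described further on plus 2 interferon-stimulated genes. That library stood out by its high untreated levels of induced genes, so leaving it out raises the ZIP response of such genes. Psmb8, a subunit of the immunoproteasome, then had an interaction of 1.24 ± 0.20 (adjusted p = 0.00866), against 0.57 with all libraries (adjusted p = 0.847). Rsad2, the antiviral enzyme viperin, had one of 1.52 ± 0.26 (adjusted p = 0.018), against 0.83 (adjusted p = 0.73).

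Inflammatory mediators rose in both lines from low levels. Of 12 chemokine ligands in the table, 8 rose in Scr and 10 in ZIP, 8 of them in both. Cxcl10, which attracts T cells, reached 385, 810, 783 and 541 CPM in Scr+Cy and 581, 913, 1117 and 1136 CPM in ZIP+Cy. The ranges overlap, and the interaction was −0.94 ± 0.97 with all libraries and 1.09 ± 0.82 without ZIP replicate 4, where Cxcl10 stood at 31.15 CPM. Nos2, inducible nitric oxide synthase, reached 16.8 to 40.9 CPM in Scr+Cy and 41.1 to 138 CPM in ZIP+Cy, and Tnf 0.551 to 1.37 CPM and 2.07 to 6.4 CPM. The treated libraries of the 2 lines did not overlap for either gene, but for Nos2 the ranges nearly met (40.94 CPM in Scr+Cy and 41.06 CPM in ZIP+Cy). The untreated levels of both genes were close to 0 and no interaction passed. Cd274, the checkpoint ligand PD-L1, reached 217 to 328 CPM in Scr+Cy and 141 to 213 CPM in ZIP+Cy, narrowly without overlap, and its interaction of −0.62 had an adjusted p of 0.761. Differences between the treated lines were common: 12.9% of all genes were higher and 15.1% lower in ZIP+Cy (edgeR adjusted p under 0.05).

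Genes of the β cell changed little. Of 21 identity markers, 1 rose and 2 fell in each line, and their median response was −0.06 in Scr and −0.19 in ZIP. Ins2 had an interaction of −0.15 (−0.47 to 0.17) and Pdx1 of −0.13 (−0.31 to 0.05). Mafa, an activator of insulin transcription, had a response of −0.41 in Scr (adjusted p = 0.0109), which no longer passed without Scr replicate 1 or without Scr+Cy replicate 3, and had a response of −0.19 in ZIP (adjusted p = 0.231). The 28 respiratory chain subunits had median responses of −0.08 and −0.05, with 0 responses called in either line, and the 22 genes of ER stress had medians of 0.07 and 0.13. Of the subunits, Cox5a is taken up further on.

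**Figure D3:**
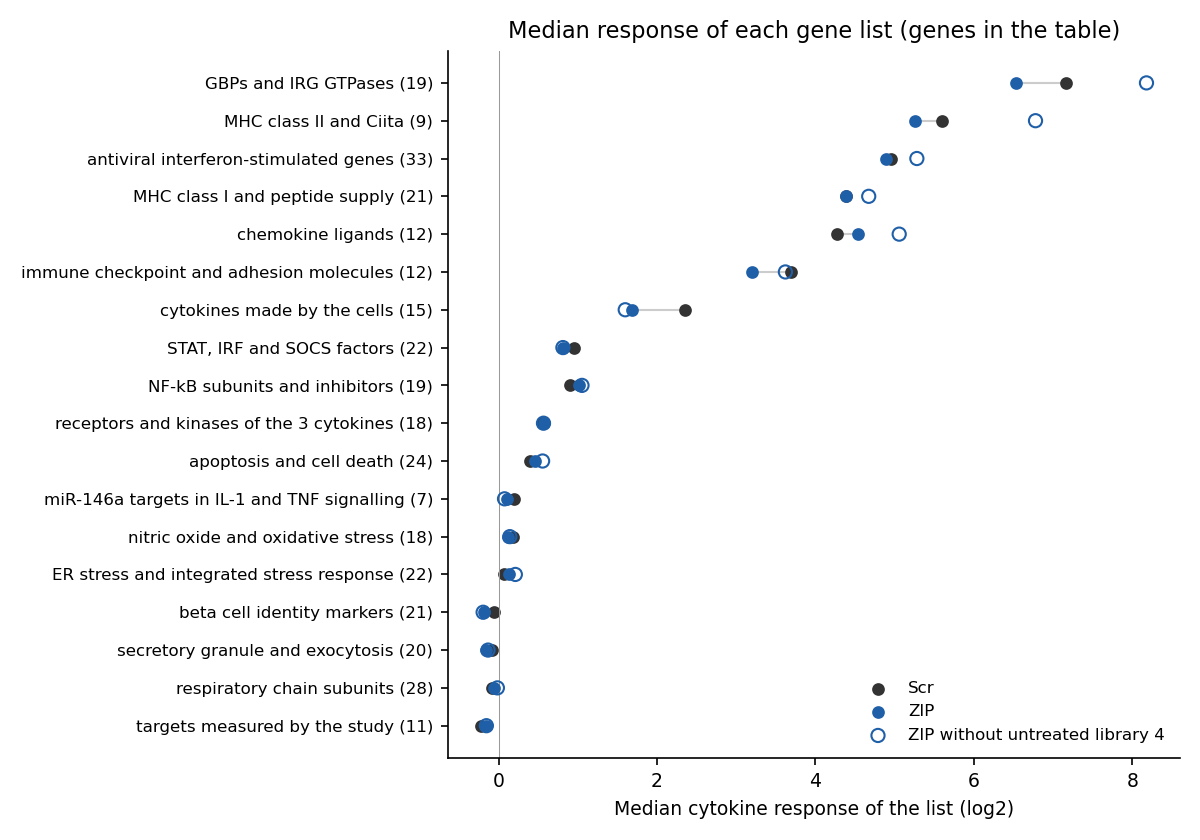
Median log2 response of each gene list in Scr (black), in ZIP (blue) and in ZIP without untreated replicate 4 (open circles), over the genes of the list present in the table (numbers in brackets). The lists keep nearly the same order in both lines, and for the GTPases the ZIP median moves from below the Scr median of 7.17 to above it without that library.

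Few genes passed the test of the interaction. 10 of 17696 (0.0565%) had an adjusted p under 0.05, 9 with the higher response in ZIP and 1 with the lower. At an unadjusted p under 0.05 there were 1137 genes (6.43%). The same test of OE cells, whose response was set against the same Scr libraries, called 3537 genes (20%). The 10 genes are given by what they do, with their mm10 position and their level in the libraries. For each of them the 4 responses of ZIP, paired by replicate number, lay entirely outside the 4 responses of Scr. The genes were picked by a test of these same libraries, and the share of all genes with such a gap is not given.

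3 of the genes act in cytokine and growth factor signalling. Pim2 (chrX:7878306-7883432, plus strand) encodes a serine/threonine kinase that promotes survival and is induced by cytokines. It had 58.4, 56.0, 57.9 and 57.8 CPM in the Scr libraries, 140, 129, 132 and 108 CPM in Scr+Cy, 47.2, 43.3, 56.2 and 48.4 CPM in ZIP, and 226, 201, 218 and 206 CPM in ZIP+Cy. The untreated lines lay close together and the ZIP+Cy libraries were all above the Scr+Cy libraries. The response was 1.15 ± 0.09 in Scr and 2.12 ± 0.10 in ZIP, which gives an interaction of 0.98 ± 0.13 (adjusted p = 0.000896).

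Ptpn11 (chr5:121130533-121191397, minus strand) encodes the tyrosine phosphatase SHP2, which relays and tunes receptor signals. It had 436, 535, 499 and 431 CPM in Scr, and the Scr+Cy libraries had 500, 522, 505 and 423 CPM. The ZIP libraries had 522, 478, 482 and 483 CPM and the ZIP+Cy libraries 896, 809, 726 and 725 CPM. The first 3 groups overlapped and ZIP+Cy alone was higher, with an interaction of 0.65 ± 0.11 (adjusted p = 0.0132). Mpzl1 (chr1:165592176-165634541, minus strand) encodes a surface glycoprotein that binds SHP2. It had 59.5, 70.6, 66.9 and 67.5 CPM in the Scr libraries, 56.8, 66.2, 64.2 and 65.6 CPM in Scr+Cy, 34.0, 34.1, 39.7 and 39.8 CPM in ZIP, and 56.25, 54.1, 59.98 and 61.3 CPM in ZIP+Cy. ZIP cells thus started lower and came close to the Scr level with cytokines, with an interaction of 0.72 ± 0.10 (adjusted p = 0.000896).

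2 of the genes regulate transcripts. Cebpd (chr16:15887286-15889545, plus strand) encodes a transcription factor of the acute inflammatory response. It had 7.47, 6.56, 5.19 and 5.98 CPM in the Scr libraries, 12.04, 10.6, 12.4 and 12.7 CPM in Scr+Cy, 0.768, 0.365, 0.372 and 0.605 CPM in ZIP, and 3.49, 4.11, 4.25 and 4.93 CPM in ZIP+Cy. All 4 groups were apart, and the treated ZIP libraries stayed under the untreated Scr libraries. Its interaction was the largest of the 10 at 2.07 ± 0.35 (adjusted p = 0.0124). Rbms1 (chr2:60751953-60963204, minus strand) encodes an RNA-binding protein and had the same order of groups: 7.94 to 10.2 CPM in Scr, 19.8 to 22.5 in Scr+Cy, 0.182 to 0.439 in ZIP and 1.75 to 3.64 in ZIP+Cy. Its interaction was 1.74 ± 0.31 (adjusted p = 0.0178). For both genes the rise in CPM was smaller in ZIP (3.67 against 5.64 CPM for Cebpd and 2.48 against 12.3 CPM for Rbms1), so that the larger response in ZIP holds on the log scale and not for the difference of levels. The other 8 genes had the same direction on both scales.

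Casp8 (chr1:58795374-58847503, plus strand) encodes the initiator caspase of death receptors, among them the TNF receptor. It had 11.5, 13.8, 12.5 and 14.3 CPM in the Scr libraries, 17.4, 17.5, 20.2 and 17.6 CPM in Scr+Cy, 4.72, 6.31, 7.10 and 6.42 CPM in ZIP, and 13.8, 13.5, 15.3 and 14.2 CPM in ZIP+Cy. The level in ZIP went from under the untreated Scr range to the upper end of it, with an interaction of 0.73 ± 0.13 (adjusted p = 0.0291). Casp8 was the least stable call: its adjusted p rose to between 0.0509 and 0.0985 when any 1 of 8 libraries was left out, and was 0.0631 in a fit of the 16 libraries alone. Among the 24 genes of apoptosis in the table it was the only one called.

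Secreted proteins gave the lower call and 1 of the higher ones. Ntn1 (chr11:68209364-68386826, minus strand), which encodes the guidance cue netrin 1, had 2.05, 2.36, 2.22 and 2.97 CPM in Scr, rising to 4.13, 5.10, 5.11 and 4.81 CPM in Scr+Cy. It had 43.2, 48.9, 49.7 and 63.1 CPM in ZIP and 39.0, 38.4, 33.2 and 46.7 CPM in ZIP+Cy. It thus rose in Scr by 1.00 ± 0.15 and fell in ZIP by 0.38 on the log2 scale (SE 0.11, adjusted p = 0.0101), from a level that was higher in ZIP throughout, with an interaction of −1.38 ± 0.18 (adjusted p = 0.000896). Ism1 (chr2:139678178-139758581, plus strand), which encodes isthmin 1, had 4.72, 4.60, 5.09 and 4.61 CPM in the Scr libraries, 4.37, 3.10, 4.74 and 4.00 CPM in Scr+Cy, 3.62, 4.09, 4.74 and 3.46 CPM in ZIP, and 8.52, 7.67, 10.85 and 7.545 CPM in ZIP+Cy. As with Ptpn11, ZIP+Cy alone stood apart, with an interaction of 1.35 ± 0.23 (adjusted p = 0.0132).

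The last pair differed between the lines mainly before treatment. Crybg1 (chr10:43950307-44148828, minus strand) encodes a protein of the βγ-crystallin family and had 41.9 to 51.3 CPM in Scr and 21.4 to 30.9 CPM in ZIP, but 109 to 152 and 123 to 148.5 CPM with cytokines. The interaction was 0.92 ± 0.15 (adjusted p = 0.00688) and the treated lines did not differ detectably (−0.01 ± 0.10). Hgsnat (chr8:25944459-25976744, minus strand) encodes a lysosomal acetyltransferase needed to break down heparan sulfate. It had 171, 175, 144 and 125 CPM in the Scr libraries, 69.7, 60.9, 56.2 and 57.3 CPM in Scr+Cy, 66.7, 69.4, 64.0 and 65.9 CPM in ZIP, and 49.3, 46.0, 45.6 and 46.7 CPM in ZIP+Cy. It fell in both lines, by 1.33 in Scr and by 0.50 in ZIP on the log2 scale, so the positive interaction of 0.83 ± 0.12 (adjusted p = 0.000986) is a smaller fall. The treated ranges of Hgsnat did not overlap and ZIP+Cy stayed below Scr+Cy (−0.38 ± 0.08).

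**Figure D4:**
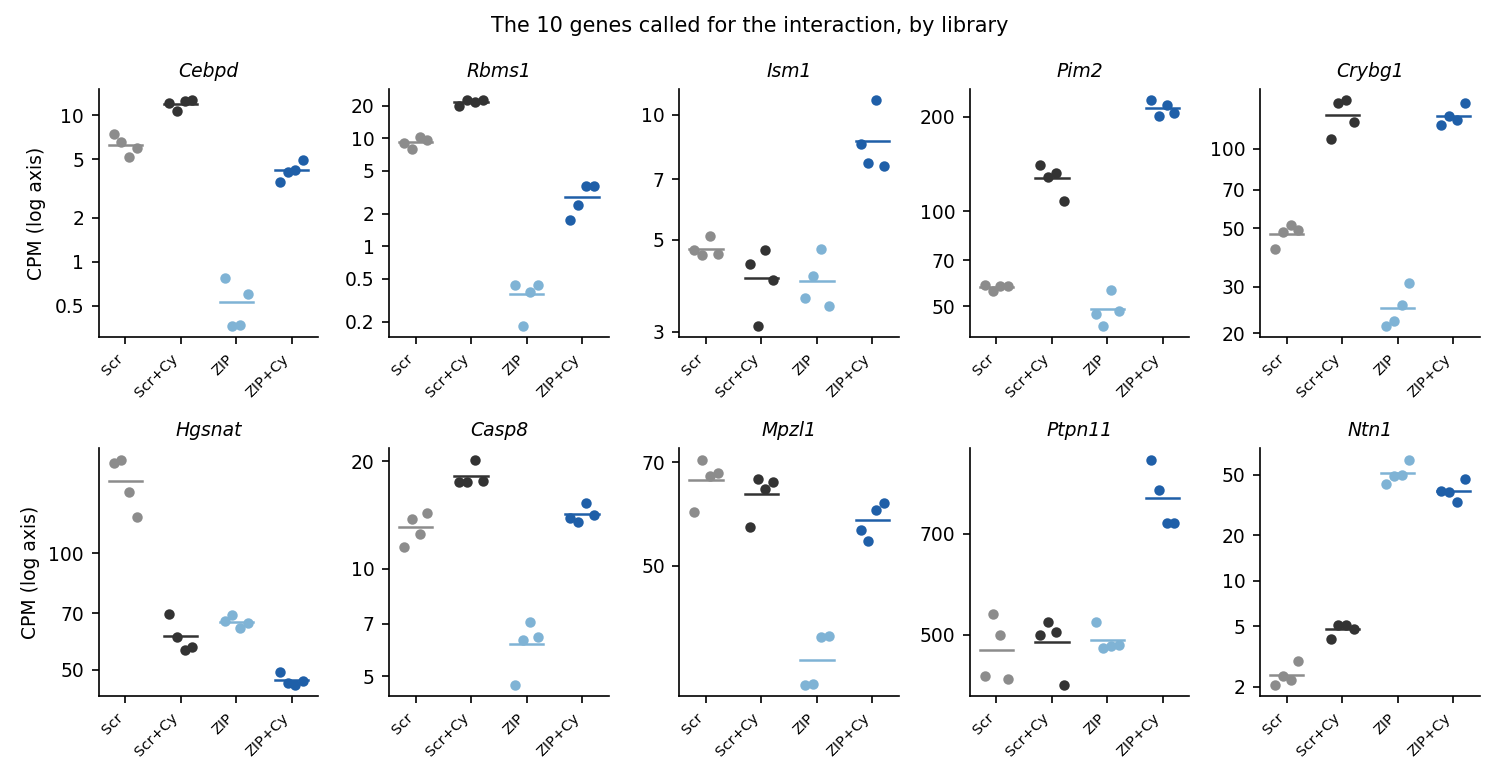
CPM of the 10 genes called for the interaction in each library of the 4 groups (points, replicates 1 to 4 from left to right) with the group mean (line), on log axes that differ between panels. Ptpn11 and Ism1 are raised in ZIP+Cy alone, Cebpd and Rbms1 are lower in ZIP cells throughout, and Ntn1 rises in Scr and falls in ZIP.

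Most of the 10 genes also differed between the lines in level. The untreated lines differed in 7 of them and the treated lines in 8 (adjusted p under 0.05). Over all genes, 12.9% were higher and 15.1% lower in ZIP+Cy than in Scr+Cy by that threshold. In 7 of the 10 the line difference was smaller after cytokines. The ZIP response passed in all 10 and the Scr response in 7. But the genes were picked by an interaction of these same libraries, which needs unequal line differences in the 2 states. These counts are therefore partly set by the choice of genes. The OE response, which shares no library with these 2 responses, was nearer to that of ZIP in 6 genes and to that of Scr in 4. No share over all genes is given for this split, for the untreated difference or for the smaller difference after cytokines. It was 3.31 ± 0.23 for Cebpd and 2.13 ± 0.24 for Ism1, on the side of ZIP, and 0.46 ± 0.09 for Pim2 and 0.19 ± 0.08 for Ptpn11, on the side of Scr. Across 37 alternative fits with edgeR or DESeq2, in which no direction was reversed, Pim2, Hgsnat, Mpzl1 and Ntn1 were called in every one. A further fit with limma-voom called 7 genes, all among the 10.

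**Figure D5:**
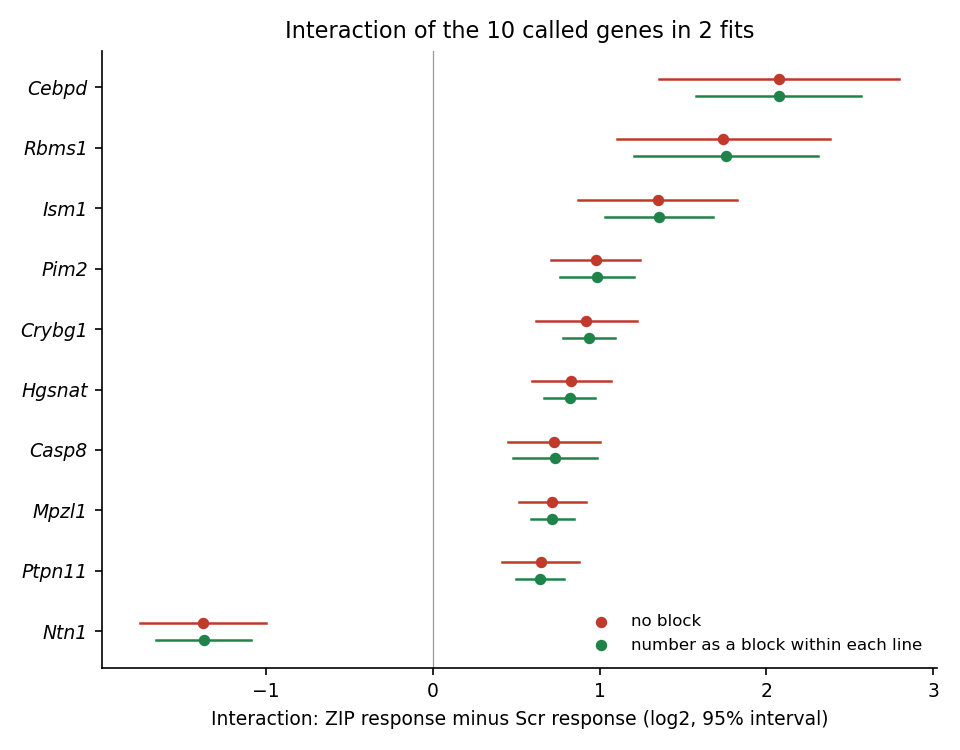
Interaction (ZIP response minus Scr response, log2) of the 10 called genes with its 95% interval, without a block (red) and with the replicate number as a block within each line (green). The estimates, from the same libraries in both fits, nearly coincide, with Ntn1 at −1.38 and Cebpd at 2.07. All intervals exclude 0, which for the red ones follows from how the genes were picked.

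Replicate numbers paired the libraries, and the paired fits called more genes. With the number as a block over all libraries, 45 genes were called (0.254%), 26 with the higher response in ZIP and 19 with the lower. With a block within each line, 214 genes were called (1.21%), 99 higher and 115 lower. The smaller set was contained in the larger, and all 10 genes were in both. By the signs of the responses, 22 of the 45 rose more in ZIP, 8 fell further in ZIP, 6 had a positive response in Scr and a negative one in ZIP, and 5 rose less in ZIP. 9 of the 45 had been called in neither response.

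Fewer genes were called when the 4 libraries of any number were left out. With the block over all libraries, 22 of the 45 were still called without number 1, 10 without number 2, 8 without number 3 and 19 without number 4. With the block within each line, 60, 66, 67 and 96 of the 214 were still called without numbers 1 to 4. All 10 genes were called in these 4 fits with the block within each line. With the block over all libraries all 10 were called without number 1, but 6 without number 2, 7 without number 3 and 8 without number 4. Cdh19, Scn7a and Lama2, genes of nerve and connective tissue, were among the 45. Scn7a, a sodium channel, had 13.0 CPM in Scr replicate 1, 29.0 in Scr+Cy replicate 1 and 18.1 in ZIP replicate 1, and at most 0.978 CPM in the other 13 libraries. Its adjusted p with the block was 0.0276 and without the libraries numbered 1 it was 0.919.

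Other genes of the 45, the following 4 chosen after their values were seen, kept their call in both block fits without the libraries numbered 1. They were less stable without the libraries numbered 3. With the block over all libraries only 8 of the 45 were then called, 7 of them genes also called without a block. Most of these 4 therefore lost the call in that fit. Lama1, a laminin chain, had means of 42.2 CPM in Scr, 39.8 in Scr+Cy, 14.2 in ZIP and 29.6 in ZIP+Cy, with an interaction of 1.13 ± 0.11 in the fit with the block within each line (adjusted p = 3.87e-05) and 1.14 without a block (adjusted p = 0.0584). Rhob, a small GTPase, rose from 91.2 to 157 CPM in ZIP and had 81.4 and 94.8 CPM in Scr, with 0.56 ± 0.07 (adjusted p = 0.000699, against 0.0904 without a block). Ets2, a transcription factor, had 62.4 and 66.2 CPM in Scr and 33.8 and 61.2 CPM in ZIP (0.76 ± 0.11, adjusted p = 0.00169, against 0.134). Il17rd, a membrane protein that dampens growth factor signalling, went from 8.29 to 17.3 CPM in Scr and from 3.69 to 22 CPM in ZIP (1.49 ± 0.27, adjusted p = 0.0107, against 0.249).

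Genes of apoptosis were the list with most calls in the paired fits, all in 1 direction. The block within each line called 4 of the 24, beside 1.21% of all genes, each with the larger response in ZIP. Bid, which links caspase 8 to the mitochondrial pathway, had 5.21, 4.37, 5.19 and 4.31 CPM in the Scr libraries, 16.8, 15.4, 19.0 and 14.2 CPM in Scr+Cy, 3.73, 4.01, 4.12 and 4.60 CPM in ZIP, and 22.4, 27.8, 32.6 and 23.7 CPM in ZIP+Cy. The treated lines were apart, with an interaction of 0.91 ± 0.14 (adjusted p = 0.00424, against 0.11 without a block). Mlkl, the effector of necroptosis, had 13.3 and 77.8 CPM in Scr and 7.44 and 63.2 CPM in ZIP (0.56 ± 0.11, adjusted p = 0.0163, against 0.718). Without the libraries numbered 1, the adjusted p of this fit was 0.0742 for Mlkl and stayed under 0.05 for Bid and Casp8. The median interaction of the list was 0.03, beside −0.02 over all genes.

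The remaining lists held 0 to 2 calls in the fit with the block within each line. Cox5a, a respiratory chain subunit named after its values were seen, fell from 117 to 94.1 CPM in Scr and had 87.2 and 89.1 CPM in ZIP. Its interaction was 0.35 ± 0.05 (adjusted p = 0.00437, against 0.493 without a block). Of the oxidative stress list, Hmox1 rose more in ZIP (adjusted p = 0.00695), while Ass1 had the lower response there (0.0116). Cox5a and Hmox1 kept the call without the libraries numbered 1 or 4. Csf1, a macrophage growth factor, rose from 25.7 to 288 CPM in Scr and from 25.0 to 441 CPM in ZIP (0.67 ± 0.15, adjusted p = 0.0354, against 0.61 without a block). Ifit2, an antiviral protein, rose from 24.1 to 155 CPM and from 13.9 to 172 CPM (0.94 ± 0.18, adjusted p = 0.0142, against 0.493). Tnip1, an inhibitor of NF-κB, rose more in ZIP (0.57 ± 0.11, adjusted p = 0.0178), and Relb, an NF-κB subunit counted among the miR-146a targets, rose less (−0.82 ± 0.17, adjusted p = 0.0246). Csf1 and Tnip1 lost the call without the libraries numbered 1 (adjusted p = 0.108 and 0.0651). Without the libraries numbered 4 the adjusted p was 0.0691 for Tnip1 and 0.085 for Relb. H2-K1 and H2-D1, near-identical class I genes whose reads can be shared, rose less in ZIP (−0.65 ± 0.12 and −0.53 ± 0.12, adjusted p = 0.0158 and 0.0356). Both were highest in ZIP replicate 4 among the untreated ZIP libraries, and without the libraries numbered 4 the adjusted p was 0.069 and 0.214. For H2-D1 it was also 0.0658 without the libraries numbered 1.

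6 of the 10 genes had RefSeq promoter windows, 9 in all. 0 of the 9 windows held a GAS match, beside 8.3% of all 32851 windows, 1 held an ISRE match (that of Crybg1), beside 3.44%, and 0 held a κB match, beside 4.51%. A GAS match can overlap an ISRE match. With so few windows these counts are a description of the letters in the windows.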

How the data were processed

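RNA-seq libraries of MIN6 lines in 6 groups of 4 were assigned to groups and replicate numbers by their labels. Per the methods and the submitters' processing notes, reads were checked with FastQC, aligned to mm10 with STAR and processed in Partek. The notes give STAR 2.7.8a and Partek 11.0.24.0204, while the published methods name other versions. The deposited table holds unnormalized estimated counts, of which 30.3% were not whole, and these were rounded. How counts were estimated and whether strand was used are not given in the sources used here, so overlapping and near-identical genes can share reads.

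All 24 libraries entered a single edgeR 4.0.16 model (R 4.3.3, TMM scaling, glmQLFit and glmQLFTest) with a mean for each of the 6 groups and no filter. The interaction was called at a Benjamini-Hochberg adjusted p under 0.05 and responses at 1.5-fold or more and an unadjusted p under 0.05. CPM are TMM-scaled. Standard errors were derived from the log2 values and their F statistics. The test without a block was checked on simulated counts, drawn independently for each library. These had no pairing by number and no outlying libraries, and the fits with a block were not checked in this way.

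Deviations from group means were compared over 12536 genes. Same-number libraries correlated by 0.452 to 0.669 between Scr and Scr+Cy, by 0.28 to 0.417 between ZIP and ZIP+Cy and by 0.2 to 0.428 between Scr+Cy and ZIP+Cy, and by 0.139 to 0.669 between Scr and ZIP. Between Scr and ZIP+Cy, 3 of 4 exceeded 0.1 and the lowest was 0.0829. Within each line every pair exceeded 0.1, so the numbers were taken to pair libraries within a line. What the numbers stand for is not given in the sources used here.

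Genes named were up to 12 in each direction called for the interaction at 1 CPM or more (predicted genes and receptor families passed over), in each list the 2 members highest in treated libraries and any called member, and fixed genes of the response and the β cell. Others were chosen after their values were seen. The members and the gene lists were chosen with earlier results of these data known. Alternatives were DESeq2 1.42.0 (Wald test), its size factors, filterByExpr, the 16 libraries alone, replicate blocks, limma-voom (limma 3.58.1) and leaving out libraries. Depth sets the precision, and a floor of 3 reads covers counting error only. Some genes are not reported here.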

Additional observations from a re-analysis of the deposited data

Results flagged for a closer look

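In 17 of 212 groups of 4 libraries, over 53 genes, 1 library lay far from the other 3, where chance gives about 1 in 20. 10 of these were untreated ZIP replicate 4, which was the highest of its group for Cxcl10 (31.15 CPM), Cxcl9 (12.47 CPM), Igtp (49.86 CPM), Iigp1 (37.63 CPM), Parp14 (37.13 CPM), Oasl2 (13.57 CPM), B2m (96.53 CPM), Cd74 (7.392 CPM), Cd274 (9.576 CPM) and Nos2 (3.494 CPM). All 10 genes are induced by the cytokines. Parp14 was also far from the others in Scr replicate 3, at 26.5 CPM. In treated libraries the same held for Irf1 in Scr+Cy replicate 1 (364.6 CPM), Xiap in Scr+Cy replicate 2 (134.6 CPM), and Casp8 (20.21 CPM) and Tnf (1.373 CPM) in Scr+Cy replicate 3. The last 2 were Ptpn11 in ZIP replicate 1 (522.3 CPM) and Mafa in Scr replicate 1 (1242 CPM).

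The responses of the lines differed by the test of the interaction itself for Cebpd (2.074 on the log2 scale), Rbms1 (1.742), Ism1 (1.348), Pim2 (0.9756), Crybg1 (0.9197), Hgsnat (0.8303), Casp8 (0.7264), Mpzl1 (0.7156), Ptpn11 (0.6472) and Ntn1 (-1.376), with the adjusted p values from edgeR given above.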

How the results depend on the processing

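Of the 10 genes called for the interaction, none changed direction in 37 alternatives each with edgeR or DESeq2. The count itself depended on the fit. It was 41 with DESeq2, 7 with limma-voom (added after seeing the data, 7 of the 10 genes) and 583 at a fold change of 1.5 with an unadjusted p under 0.05, and 7 to 12 when 1 library was left out, lowest without ZIP replicate 2 or ZIP+Cy replicate 3. With the replicate number as a block the count was 45, or 84 in the 16 libraries alone, and 214 with the block within each line. With DESeq2 the 2 blocks gave 110 and 236, alternatives chosen after seeing the data, as were those that left out all libraries of a number. Without a block these called 8, 4, 7 and 6 genes without numbers 1 to 4. With the common block they called 31, 14, 8 and 27, and with the block within each line 64, 85, 73 and 119 without numbers 1 to 4. The cause of these differences was not tested.

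Leaving out 1 library, the calls ranged from 1764 to 1950 in Scr and from 1990 to 2292 in ZIP, and the correlation of the responses from 0.8698 to 0.9516. The correlation was 0.8014 by ranks and 0.5029 over all 17696 genes, those under 1 CPM included. Of 1424 alternatives for the responses of single genes, 13 lost the call (Jak1, Il1r1 and Mafa) and 0 reversed. Low counts limit the interaction of genes near 0 in untreated libraries, such as Nos2 and Tnf.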

Other observations

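Eef1a2, which encodes a translation elongation factor, was nearly absent from the ZIP line in both states. Its mean was 323 CPM in Scr, 295 CPM in Scr+Cy, 0.635 CPM in ZIP and 0.42 CPM in ZIP+Cy.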
